A study of Mus musculus with 24 samples.

Results

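Cck, Gal, Vip, Nmb, Penk and Tac1 encode the precursors of neuropeptides that are also made within the pituitary, where they can act on neighbouring hormone cells. These 6 genes were listed by name, with earlier results of these data known, out of 35191 genes counted in 24 mouse pituitary libraries. The libraries were non-stranded RNA-seq from 1.5 ug of total RNA each, in 8 groups of 3 that combine sex with 4 genotypes. Complete wild type, labelled wt (-), carried neither floxed Egr1 nor Cre, and Cre control, labelled wt (+), carried Cre alone. Egr1cKO control, labelled FF (-), carried floxed Egr1 without Cre, and Egr1cKO, labelled FF (+), carried both. Egr1 is an immediate early gene for a zinc-finger DNA-binding protein, and the series compares the sexes in its conditional knockout. The sources used here do not give age, strain, Cre driver or the targeted exon.

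A neuropeptide precursor is cut by proprotein convertases inside secretory granules, trimmed and often amidated, and the peptides are released to act on G protein-coupled receptors. In the pituitary such peptides are known as local signals beside the classical hormones. Galanin is well known for its oestrogen-responsive expression in rodent lactotropes, and vasoactive intestinal peptide for its stimulation of prolactin release. The labels call the cells endocrine, but the libraries are whole tissue. In bulk RNA, fewer cells of a type and less RNA per cell cannot be told apart.

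All 6 genes passed the filter on low counts, which left 21927 genes. Total counts ranged from 15486069 to 26255343 per library. Levels are CPM, read counts scaled to a common library total, on edgeR's TMM-scaled totals, given as mean ± SD, and a gene is called changed at an edgeR quasi-likelihood adjusted p under 0.05 (Benjamini-Hochberg over the 21927 genes). A fold change is a fitted log2 value with its standard error (SE). Defining markers of the hormone cells, such as Prl and Pomc, were present in all 24 libraries. Mean Egr1 mRNA was not lower in Egr1cKO than in its controls: it averaged 134 ± 93.1 against 38.9 ± 14.6 CPM in males and 65.5 ± 84.4 against 18.3 ± 13.8 CPM in females (n = 3 each). Female Egr1cKO libraries ranged from 7.55 to 162 CPM. With Cre alone Egr1 averaged 195 ± 253 against 38.1 ± 16.9 CPM in wild type in males. In females these means were 214 ± 236 and 69.9 ± 84.7 CPM. Counts per gene do not test the loss of an exon, so every Egr1cKO result below rests on the label. Mitochondrial genes took 2.14% to 10.4% of counts in female libraries (median 6.36%, n = 12) and 2.08% to 4.8% in male libraries (median 3.17%, n = 12). The titles number the unfloxed and the floxed libraries in separate series, and each difference was formed within a series. Nothing in the labels beyond these numbers says that libraries came from separate animals, so p-values measure the spread between these samples.

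The promoter sequences of 5 of the genes were taken from RefSeq (GRCm38.p6) because Egr1 is a DNA-binding factor and several neuropeptide genes are known for cyclic AMP response elements (CREs). Each window ran from 250 bases before to 50 after the RefSeq start, and both strands were searched. The EGR site GCGNGGGCG matched in 0 of 5 windows, against 5.55% of all 32851 windows. The full CRE, TGACGTCA, matched in 0 of 5, against 1.79% of all windows. The CRE half-site TGACG, which lies within the full CRE, matched in 4 of 5, against 20.8% of all windows. Its first base lay at -47 in Cck, +19 in Gal, -79 in Vip, and -197 and -43 in Tac1, relative to the start. TATAAA matched only in Vip, at -157, -147 and -30, against 13.6% of all windows. These matches are letters in a window and no evidence of binding. The 150 bases before the start are shown for 3 genes with a half-site there, 5′ to 3′ on the gene's strand, with half-sites on either strand and TATAAA in capitals. They are chr9:121495695-121495844 for Cck, chr10:5639068-5639217 for Vip and chr6:7554911-7555060 for Tac1.
Cck: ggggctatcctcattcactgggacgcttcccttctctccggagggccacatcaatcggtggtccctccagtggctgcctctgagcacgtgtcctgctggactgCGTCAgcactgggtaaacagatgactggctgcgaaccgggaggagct
Vip: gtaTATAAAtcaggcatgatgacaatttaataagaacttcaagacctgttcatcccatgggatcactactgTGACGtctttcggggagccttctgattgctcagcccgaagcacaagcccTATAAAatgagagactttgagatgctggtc
Tac1: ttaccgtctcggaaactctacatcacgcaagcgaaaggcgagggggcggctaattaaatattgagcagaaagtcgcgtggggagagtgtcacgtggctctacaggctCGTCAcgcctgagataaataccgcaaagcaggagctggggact

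Per kilobase of exon, Gal was the most abundant of the 6 genes, with a median over 24 libraries of 14.3 CPM per kb, at percentile 87 of the genes tested. Cck, Nmb and Penk had medians of 4.84, 4.74 and 4.74 CPM per kb. Vip was lower, at 0.562 CPM per kb, and Tac1 the lowest, at 0.0668 CPM per kb and percentile 7.46. Tac1 had 236 counts in all libraries together and was at 0 in 7 of them. The spread between libraries of a group was wide: the biological coefficient of variation was 38.3% for Penk, 91.6% for Gal and 140% for Tac1. When the 8 groups were ordered by mean level, 0 of the 7 neighbouring pairs had ranges without overlap, for each of the 6 genes. Pairs of groups without overlap are given below without the share of all genes separated likewise, which was not computed.

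**Figure D1:**
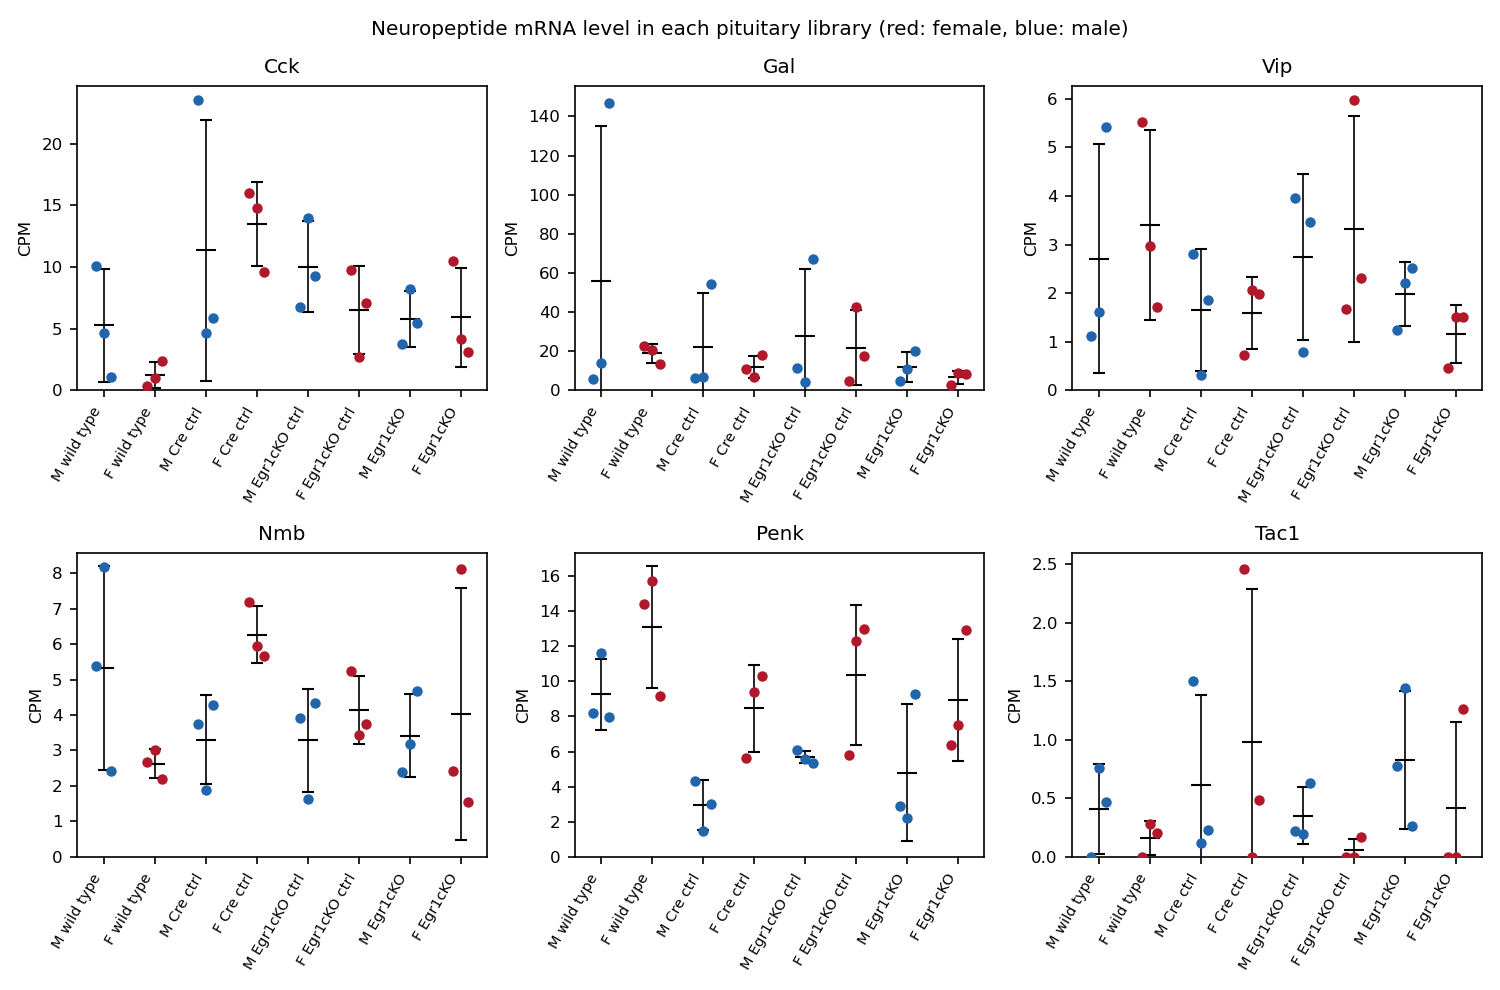
Level of each gene (CPM, linear axis from 0) in the 24 libraries, by sex (M male, F female) and genotype (ctrl: control). Points are libraries, and bars are the mean ± SD of 3, cut at 0 where they would go below it; female Penk ranged from 5.66 to 15.7 CPM and male Penk from 1.49 to 11.6 CPM, and Gal was highest in 1 male wild type library at 147 CPM.

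Penk (ENSMUSG00000045573, chromosome 4, 4133531 to 4138819, minus strand, GRCm38) encodes proenkephalin, the precursor of the enkephalins, which act on opioid receptors. Penk was higher in females than in males. In wild type it measured 8.21, 11.6 and 7.98 CPM in the male libraries and 14.4, 15.7 and 9.14 CPM in the female libraries. In Cre control it measured 4.3, 1.49 and 3.04 CPM in males and 5.66, 9.41 and 10.3 CPM in females. The 2 sexes overlapped in wild type, while in Cre control every female library was above every male library. In Egr1cKO control the values were 6.08, 5.6 and 5.37 CPM in males and 5.8, 12.3 and 13 CPM in females. In Egr1cKO they were 2.89, 2.2 and 9.27 CPM in males and 6.4, 7.5 and 12.9 CPM in females. In both floxed genotypes 1 library crossed the other sex, female replicate 1 in the controls and male replicate 3 in Egr1cKO.

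Averaged over the 4 genotypes, Penk rose by 0.95 on the log2 scale in females (SE 0.227, 95% interval 0.48 to 1.41, edgeR adjusted p = 0.0045). The means were 10.2 ± 3.46 CPM in females and 5.67 ± 3.11 CPM in males (n = 12 each). The difference was positive in each genotype and was not called in any of them alone: 0.5 in wild type (edgeR adjusted p = 0.938), 1.53 in Cre control (0.059), 0.87 in Egr1cKO control (0.398) and 0.9 in Egr1cKO (0.176). The averaged call was kept when each of the 24 libraries was left out in turn. With each library's mitochondrial share as a covariate it was not called (0.67, edgeR adjusted p = 0.3). The share also differed by sex, as given above, and its part in the Penk result was not tested.

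Penk levels in Cre carriers lay below those of Cre-free libraries without passing the test. The average over the 4 pairs was -0.69 on the log2 scale (SE 0.226, edgeR adjusted p = 0.0649), with means of 6.28 ± 3.65 against 9.61 ± 3.69 CPM (n = 12 each). DESeq2 called this difference (-0.7, adjusted p = 0.0308), as did the fit with the mitochondrial share (-0.81, edgeR adjusted p = 0.0147). In males, all 3 Cre control libraries were below all 3 wild type libraries, with means of 2.95 and 9.27 CPM. That difference was -1.66 (SE 0.464, edgeR adjusted p = 0.155), and DESeq2 called it (adjusted p = 0.0347). In the other pairs the fitted difference was -0.63 for Cre control against wild type in females, -0.24 for Egr1cKO in males and -0.22 for Egr1cKO in females, all with overlapping libraries. Penk shares 233 exon bases, 14.3% of its exons, with A830012C17Rik on the other strand, which had at most 3 counts in any library.

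Markers of several pituitary cell types moved with the same 2 factors, sex and Cre. Of 4 lactotrope markers, all detected in every library, 1 was higher and 1 lower in females, and 2 were higher and 2 lower in Cre carriers. Their summed level, most of it Prl, was 36900 to 43800 CPM in male wild type, 3310 to 5100 in male Cre control, 15500 to 47100 in male Egr1cKO control and 4360 to 7550 in male Egr1cKO. In females the sums were 113000 to 151000, 58700 to 75800, 81500 to 140000 and 21400 to 49300 CPM in the same order. All 5 posterior lobe markers (Oxt, Avp, Rax, Nkx2-1 and Col25a1) were higher in females and 4 of 5 were higher in Cre carriers. Their sums in males were 70.1 to 124 CPM in wild type, 110 to 183 in Cre control, 51.5 to 130 in Egr1cKO control and 153 to 180 in Egr1cKO. The female sums were 150 to 215, 256 to 281, 159 to 167 and 304 to 418 CPM in that order. Of 3 melanotrope markers, 2 were higher in females and 3 in Cre carriers. Their sums in males were 234 to 812, 1060 to 1680, 173 to 887 and 1110 to 2300 CPM in that order, and in females 787 to 1340, 1550 to 2130, 327 to 1150 and 2150 to 3470 CPM. Of 4 somatotrope markers, 3 were lower in females and 4 were lower in Cre carriers, with median log2 differences of -0.56 and -1.14.

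The somatotrope sums in males were 189000 to 279000 CPM in wild type, 41400 to 89900 in Cre control, 153000 to 375000 in Egr1cKO control and 103000 to 122000 in Egr1cKO. In females they were 50500 to 183000, 83100 to 85900, 107000 to 191000 and 45300 to 64500 CPM in that order. Of 4 gonadotrope markers, 3 were lower in females and 1 was higher in Cre carriers. Their sums in males were 2610 to 2880, 2990 to 6840, 1660 to 4690 and 3260 to 4540 CPM in that order, and in females 965 to 1180, 2020 to 3290, 1010 to 1960 and 1100 to 1290 CPM. Of 3 thyrotrope markers, 2 were lower in females and 2 higher in Cre carriers. Their sums in males were 362 to 591, 736 to 1200, 253 to 376 and 678 to 944 CPM in that order, and in females 240 to 254, 612 to 740, 262 to 515 and 254 to 292 CPM. Of 4 corticotrope markers, 1 was higher and 1 lower in females, and 2 were higher in Cre carriers. Their sums in males were 8920 to 48300, 30200 to 46900, 7410 to 31100 and 38900 to 111000 CPM in that order. The female sums were 35800 to 40300, 50900 to 93700, 11700 to 38800 and 81200 to 225000 CPM. Of 4 stem and folliculostellate markers, 1 was lower in females and 2 were higher in Cre carriers. In each list of endothelial, leukocyte, neuron and Schwann markers, at most 1 was called in either comparison. No lactotrope, posterior lobe, melanotrope, somatotrope, gonadotrope, thyrotrope or corticotrope marker was at 0 in any library. The part of these markers in the levels of Penk and of the other 5 genes was not tested.

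Prl, the prolactin gene, was the gene whose pattern over the 24 libraries was most like that of Penk, among 13980 genes with a mean of at least 1 CPM. Pearson's r on log2 CPM was 0.82 (rho 0.74), 0.89 in the unfloxed and 0.72 in the floxed libraries, and 0.48 after subtraction of group means. Ehf and Copz2 followed, each with r = 0.77, and with 0.26 and 0.32 after subtraction of group means. These values describe the top of a ranking, and sex, genotype and depth differed between the libraries.

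**Figure D2:**
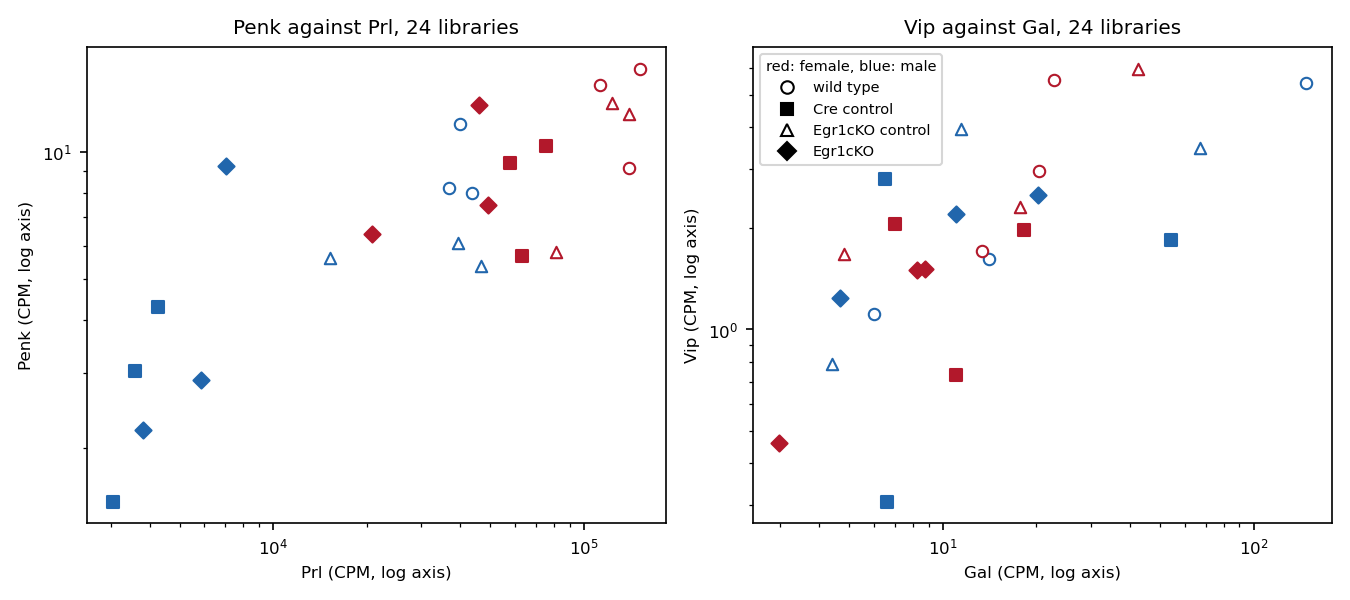
Penk against Prl (left) and Vip against Gal (right) in the 24 libraries, in CPM on log axes. Each point is 1 library, red for female and blue for male, with the marker shape for genotype (open: Cre-free, filled: Cre carriers); r on log2 CPM was 0.82 on the left and 0.69 on the right.

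Cck (ENSMUSG00000032532, chromosome 9, 121489824 to 121495694, minus strand) encodes cholecystokinin, a gut and brain peptide that acts on the receptors encoded by Cckar and Cckbr. Cck was higher in female Cre control libraries than in female wild type libraries. Female wild type libraries held 0.357, 1.04 and 2.37 CPM, from 6, 22 and 58 counts, and female Cre control libraries 16, 14.8 and 9.62 CPM. The libraries did not overlap, and female wild type had the lowest mean of the 8 groups. Male wild type libraries held 10.1, 4.67 and 1.05 CPM and male Cre control libraries 23.5, 4.64 and 5.89 CPM, which overlapped. In the floxed genotypes Cck was 6.75, 14 and 9.29 CPM in male Egr1cKO control, 9.78, 2.68 and 7.05 in female Egr1cKO control, 3.76, 8.22 and 5.42 in male Egr1cKO and 10.5, 4.2 and 3.09 in female Egr1cKO. All 4 of these groups overlapped one another.

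Cck rose by 3.39 on the log2 scale in female Cre control against female wild type (SE 0.795, 95% interval 1.74 to 5.04, edgeR adjusted p = 0.0393), from 1.25 ± 1.02 to 13.5 ± 3.4 CPM (n = 3 each). The call was lost when any 1 of the 6 libraries other than female wild type replicate 1 was left out (adjusted p up to 0.17, log2 values 3.24 to 4.23). It was also lost in a model of the 2 groups alone (3.41, edgeR adjusted p = 0.266), which called 2 of 18053 genes. Of 6 alternative settings apart from leaving out libraries, the other 5 kept the call. In males the same difference was 1.12 (edgeR adjusted p = 0.617), and it was 0.01 without male Cre control replicate 1, the library at 23.5 CPM, 0.62 without male wild type replicate 3 and 1.99 without male wild type replicate 1. Averaged over the sexes, in a comparison added after the data were seen, it was 2.25 (SE 0.534, edgeR adjusted p = 0.0423), and 9 of 12 libraries left out in turn removed that call, with log2 values down to 1.7 without male Cre control replicate 1. In the floxed pairs it was -0.79 in males (edgeR adjusted p = 0.949) and -0.14 in females (0.949). The Egr1cKO effect minus the Cre effect was -2.72 for Cck (SE 0.731, unadjusted p = 0.00125, edgeR adjusted p = 0.925). Neither the average over all 4 Cre pairs (0.89, edgeR adjusted p = 0.151) nor the sex difference in wild type (-2.02, edgeR adjusted p = 0.525) was called. The genes most like Cck over the libraries were Dynlt1a, Rbp7 and B9d2, with r of 0.75, 0.74 and 0.73, and Dynlt1a had r = 0.21 within the floxed libraries.

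Gal (ENSMUSG00000024907, chromosome 19, 3409915 to 3414544, minus strand) encodes galanin, which acts on the receptors encoded by Galr1, Galr2 and Galr3. Gal varied widely within groups. Male libraries held 5.99, 14.1 and 147 CPM in wild type, 6.51, 6.63 and 54.1 in Cre control, 11.4, 4.41 and 67.1 in Egr1cKO control and 4.68, 11 and 20.3 in Egr1cKO. Replicate 3 was the highest library in each male group, where the replicate number only names a library. Female libraries held 22.8, 20.4 and 13.4 CPM in wild type, 11, 6.99 and 18.2 in Cre control, 4.81, 42.5 and 17.7 in Egr1cKO control and 2.97, 8.78 and 8.23 in Egr1cKO. All compared groups overlapped. The difference of females from males was -0.92 on the log2 scale (SE 0.596, edgeR adjusted p = 0.291), and that of Cre carriers from Cre-free libraries -1.21 (SE 0.599, edgeR adjusted p = 0.257). Their 95% intervals, -2.18 to 0.34 and -2.48 to 0.05, include more than a 4-fold decrease. Without male wild type replicate 3, the library at 147 CPM, the 2 differences were -0.31 and -0.6. Without male Cre control replicate 3 the sex difference was -0.49, and without male Egr1cKO control replicate 3 the values were -0.47 and -0.76. Cre control against wild type in males was -1.32 for Gal (edgeR adjusted p = 0.748) and was 1.16 without male wild type replicate 3 and -3.09 without male Cre control replicate 3. A fit without the filter on low counts called Gal in both averaged comparisons (-0.94 and -1.22, edgeR adjusted p = 1.08e-10 and 1.48e-17). Its fitted values were close to those of the main fit. That setting called 15.3% and 6.24% of all 35191 genes and moved 14 of the 17 counts of called genes among the 6. The cause was not tested, and the wide spread between Gal libraries remains. The genes most like Gal were Hapln1, Apobec1 and Ap3b2, with r of 0.67, 0.63 and 0.61.

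Vip (ENSMUSG00000019772, chromosome 10, 5639218 to 5647617, plus strand) encodes vasoactive intestinal peptide, which acts on the receptors encoded by Vipr1 and Vipr2. Male libraries held 1.11, 1.62 and 5.41 CPM in wild type, 2.8, 0.307 and 1.85 in Cre control, 3.96, 0.788 and 3.47 in Egr1cKO control and 1.24, 2.2 and 2.51 in Egr1cKO. Female libraries held 5.53, 2.97 and 1.71 CPM in wild type, 0.732, 2.06 and 1.98 in Cre control, 1.68, 5.98 and 2.31 in Egr1cKO control and 0.46, 1.51 and 1.5 in Egr1cKO. Every female Egr1cKO library was below every female Egr1cKO control library. That difference was -1.52 on the log2 scale (SE 0.793, edgeR adjusted p = 0.296) and was not called. Over all 4 pairs, Cre carriers differed from Cre-free libraries by -0.95 (SE 0.39, unadjusted p = 0.0222, edgeR adjusted p = 0.151), with all 4 pair values negative (-0.46 to -1.52) and means of 1.59 ± 0.794 and 3.05 ± 1.82 CPM (n = 12 each). It was called once each library's mitochondrial share entered as a covariate (-1.14, edgeR adjusted p = 0.0433). The sexes differed by -0.06 (95% interval -0.85 to 0.73). Tmem219, Fam124a and Ofd1 were the genes most like Vip, with r of 0.76, 0.73 and 0.68.

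Vip and Gal followed each other across the libraries. Pearson's r on log2 CPM was 0.69 and Spearman's rho 0.74 over 24 libraries (permutation tests with 100000 resamples, adjusted p = 0.0042 and 0.00105 over the 15 pairs of the 6 genes). Libraries were permuted without regard to sex or genotype, so shifts shared by a group enter these p-values. No p was computed for r after subtraction of group means. Without the 2 libraries farthest from the median of Gal, r was 0.64. It was 0.59 in the unfloxed libraries, 0.85 in the floxed libraries and 0.68 after subtraction of group means. In none of the other 14 pairs did the adjusted p pass 0.05. The next were Cck with Gal (r = -0.47), Cck with Vip (-0.45) and Vip with Penk (0.47), each with adjusted p = 0.0991 in the permutation test of r. Total counts and the levels of cell type markers differed between the libraries. The part of depth or tissue composition in these correlations was not tested.

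Nmb (ENSMUSG00000025723, chromosome 7, 80902227 to 80905076, minus strand) encodes neuromedin B, a bombesin-like peptide that acts on the receptor encoded by Nmbr. Nmb measured 5.37, 8.17 and 2.41 CPM in male wild type, 2.67, 3.02 and 2.2 in female wild type, 3.75, 1.88 and 4.27 in male Cre control and 7.19, 5.94 and 5.67 in female Cre control. Every female Cre control library was above every female wild type library and every male Cre control library. The first difference was 1.25 on the log2 scale (SE 0.543, edgeR adjusted p = 0.238) and the second 0.92 (SE 0.537, edgeR adjusted p = 0.304), so neither was called. The floxed libraries held 3.91, 1.62 and 4.33 CPM in male controls, 5.23, 3.43 and 3.76 in female controls, 2.38, 3.19 and 4.68 in male Egr1cKO and 2.43, 8.11 and 1.54 in female Egr1cKO, and all overlapped. Averaged over genotypes the sexes differed by 0.12 (95% interval -0.43 to 0.67), and Cre carriers from Cre-free libraries by 0.14 (-0.41 to 0.69), intervals that lie within a 2-fold change either way. Nmb shares 163 exon bases, 20.6% of its exons, with Sec11a on the same strand, at 58.8 to 121 CPM in these libraries. The sources used here do not say how reads in the shared bases were counted. Nosip, Fbxo6 and Zfp938 were the genes most like Nmb, with r of 0.74, 0.72 and 0.72.

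Tac1 (ENSMUSG00000061762, chromosome 6, 7554879 to 7565834, plus strand) encodes the precursor of substance P and neurokinin A, tachykinins that act on the receptors encoded by Tacr1 and its relatives. Tac1 was near the limit of detection. Male libraries held 0, 0.763 and 0.467 CPM in wild type, 1.5, 0.115 and 0.231 in Cre control, 0.223, 0.197 and 0.631 in Egr1cKO control and 0.78, 1.44 and 0.26 in Egr1cKO. Female libraries held 0, 0.283 and 0.204 CPM in wild type, 2.46, 0 and 0.483 in Cre control, 0, 0 and 0.171 in Egr1cKO control and 0, 0 and 1.26 in Egr1cKO. Of the 7 libraries at 0, 6 were female. Female Egr1cKO controls were all below male Egr1cKO controls, and this difference was not called (edgeR adjusted p = 0.634). Averaged over genotypes the sexes differed by -1.01 on the log2 scale (95% interval -2.84 to 0.82, edgeR adjusted p = 0.443) and Cre carriers from Cre-free libraries by 1.76 (-0.12 to 3.63, edgeR adjusted p = 0.271). Without female Egr1cKO replicate 3, the library at 1.26 CPM, the Tac1 values were -2.57 for sex and 0.2 for Cre. Leaving out other single libraries gave -0.57 to -1.89 for sex and 1.26 to 2.63 for Cre, the ends of the ranges being without male Cre control replicate 1 and female Egr1cKO control replicate 3 for sex, and female Cre control replicate 1 and female Egr1cKO control replicate 3 for Cre. Counts this low leave the correlations of Tac1 with other genes uncertain, and the highest r was 0.74, with F8a and with Cidea.

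**Figure D3:**
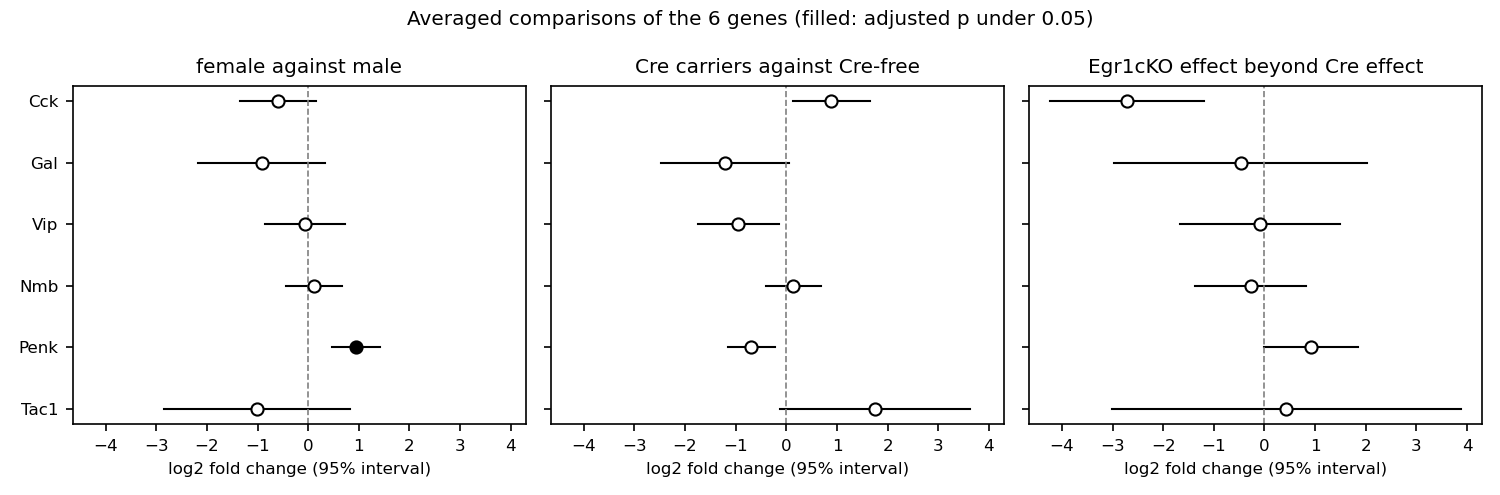
Fitted log2 fold change of each gene with its 95% interval for females against males (left), Cre carriers against Cre-free libraries (middle), and the Egr1cKO effect minus the Cre effect (right). Filled points have an edgeR adjusted p under 0.05; only Penk in the left panel is filled, at 0.95.

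The number of the 6 genes called was read against the share of all tested genes called in the same comparison. For the sexes averaged over genotypes, 1 of 6 genes was called, against 21.7% of all genes, so the share was close to the background. Between the sexes, 0 of 6 were called in wild type, against 0.283% of all genes, in Cre control (3.61%), in Egr1cKO control (0.451%) and in Egr1cKO (13.1%). At an unadjusted p under 0.05 edgeR gave 1 of 6 in wild type (Cck, 7.03% of all genes), 1 in Cre control (Penk, 23.6%), 0 in Egr1cKO control (13.8%) and 0 in Egr1cKO (31.1%). DESeq2 called 1 of 6, Penk, in Cre control (9.42% of all genes), and 0 of 6 in wild type (0.93%), Egr1cKO control (2.29%) and Egr1cKO (19%). In the comparisons added after the data were seen, 1 of 6, Penk, differed between the sexes among Cre carriers (1.21, edgeR adjusted p = 0.00737, 27.9% of all genes called), and with the mitochondrial share as a covariate it did not (0.8, edgeR adjusted p = 0.462). Among Cre-free libraries 0 of 6 did (1.5% of all genes), and Penk differed by 0.68 (edgeR adjusted p = 0.371). There 2 of 6 (Cck and Penk) had an unadjusted p under 0.05, against 12.5% of all genes, and DESeq2 called 0 of 6 (3.03%). The median log2 difference of the 6 genes between the sexes was -0.32, beside -0.06 over all genes tested.

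For Cre carriers against Cre-free libraries, averaged over 4 pairs, 0 of 6 genes were called, against 6.89% of all genes, and 3 of 6 (Cck, Vip and Penk) had an unadjusted p under 0.05, against 21.4% of all genes. DESeq2 called 1 of 6, Penk, against 9.94% of all genes. Cre control against wild type gave 0 of 6 in males (0.233% of all genes, with Penk alone at an unadjusted p under 0.05, against 10.8%, and called by DESeq2, against 1.16%) and 1 of 6, Cck, in females (1.21%). Averaged over the sexes, a comparison added after the data were seen, it gave 1 of 6, Cck (1.04%). At an unadjusted p under 0.05, edgeR gave 2 of 6 in females (Cck and Nmb), against 16.8% of all genes. Over the sexes it gave 2 of 6 (Cck and Penk), against 10.7%. The median log2 difference of the 6 genes over the 4 pairs was -0.27, beside -0.03 over all genes, with 3 positive and 3 negative values.

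Egr1cKO against Egr1cKO control gave 0 of 6 genes in males (0.041% of all genes) and 0 of 6 in females (2.21%), with smallest adjusted p of 0.949 for Cck and 0.296 for Vip by edgeR. Averaged over the sexes, a comparison added after the data were seen, it gave 0 of 6 as well (3.15%). At an unadjusted p under 0.05, edgeR likewise gave 0 of 6 in each of these 3 comparisons, against 6.57%, 19.3% and 18.1% of all genes. By DESeq2 the count was also 0 of 6 in each, against 0.47%, 6.63% and 6.09%. By edgeR, the Egr1cKO effect minus the Cre effect, averaged over the sexes, was called in 0 of 6 genes and in 0% of all genes. At an unadjusted p under 0.05 it was found in 1 of 6, Cck, and in 1125 of 21927 genes, and DESeq2 called 0 of 6 and 3 of all genes. The effect of Cre differed between the sexes in 0 of 6 genes (2.06% of all genes), with values of 1.46 for Cck (SE 0.723, edgeR adjusted p = 0.243) and 0.53 for Penk (SE 0.45, 0.522). The effect of Egr1cKO differed between the sexes in 0 of 6 genes (0.0228% of all genes), and for Penk this difference was 0.03 (95% interval -1.27 to 1.33). In both interactions 0 of 6 had an unadjusted p under 0.05 by edgeR, against 21.9% of all genes for Cre and 8.44% for Egr1cKO, and DESeq2 called 0 of 6 (6.22% and 0.374%).

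Receptor genes of the 6 peptides were present at low levels, with a median of at most 2.22 CPM for all but Adcyap1r1. Of 14 receptor genes measured, 13 passed the filter, and Oprd1, a delta opioid receptor gene at 0 in 18 libraries, did not. Between the sexes 3 were higher in females, 1 was lower and 9 did not pass the test, against 21.7% of all genes called, with a median log2 difference of 0.86 beside -0.06 over all genes. Tacr1, encoding the substance P receptor, rose by 4.78 on the log2 scale (SE 0.667, edgeR adjusted p = 2.73e-05), from 0.0904 ± 0.109 CPM in males to 1.66 ± 1.4 CPM in females. Cckar, encoding a cholecystokinin receptor, rose by 4.67 (SE 0.996, edgeR adjusted p = 0.00223), from 0.0948 ± 0.216 to 1.71 ± 2.26 CPM, and was at 0 in 11 of 24 libraries. Oprk1, encoding the kappa opioid receptor, rose by 2.16 (SE 0.429, edgeR adjusted p = 0.00108), from 0.844 ± 0.593 to 3.21 ± 2.11 CPM. That receptor binds dynorphins with high affinity and enkephalins weakly. Adcyap1r1, encoding a receptor that binds PACAP with high affinity and VIP weakly, fell by 1.07 (SE 0.108, edgeR adjusted p = 1.57e-07), from 46.7 ± 13.1 CPM in males to 21.8 ± 4.48 CPM in females (n = 12 each). Cck and Tac1 themselves were not called between the sexes. The mitochondrial share and several cell type markers, given above, also differed by sex, and their part in these receptor differences was not tested. The receptor genes were not followed under the alternative fits or with libraries left out.

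**Figure D4:**
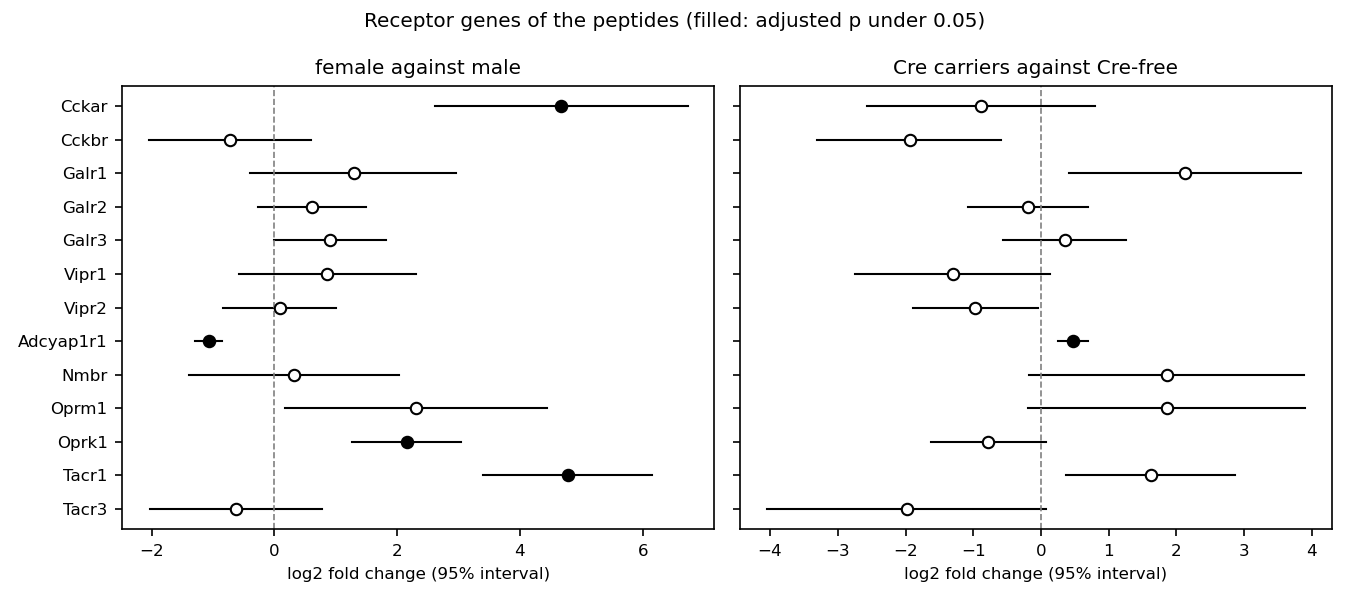
Fitted log2 fold change with its 95% interval for the 13 tested receptor genes, females against males (left) and Cre carriers against Cre-free libraries (right). Filled points have an edgeR adjusted p under 0.05: Cckar, Oprk1 and Tacr1 above 0 and Adcyap1r1 below it on the left, and Adcyap1r1 at 0.47 on the right.

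In Cre carriers 1 of the 13 receptor genes was higher and 12 did not pass the test, a share close to the 6.89% of all genes called, with a median of -0.19 beside -0.03 over all genes. Adcyap1r1 rose by 0.47 (SE 0.107, edgeR adjusted p = 0.00709), with 40.3 ± 18.6 against 28.2 ± 10.2 CPM. The next by p were Cckbr, the second cholecystokinin receptor gene, at -1.94 (edgeR adjusted p = 0.0742), Tacr1 at 1.62 (0.113) and Galr1 at 2.13 (0.127). For galanin, Galr2 and Galr3 had medians of 1.96 and 2.22 CPM, and neither was called by sex or Cre. For VIP, Vipr1 and Vipr2 had medians of 0.444 and 1.18 CPM and differences of -1.3 (edgeR adjusted p = 0.29) and -0.97 (0.208) in Cre carriers. Nmbr and Oprm1 were at 0 in 10 and 11 libraries.

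Of 16 peptide processing and granule genes, all tested, 2 were higher in females, 11 lower and 3 did not pass the test, against 21.7% of all genes called, with a median log2 difference of -0.66 beside -0.06 over all genes. These genes cut, modify or store the peptides of many kinds of hormone cell. The higher mitochondrial share of female libraries and the lower somatotrope and gonadotrope markers, given above, moved with the same comparison, and adding the mitochondrial share to the model lowered the calls among all genes from 4761 to 596. Their part in the processing genes was not tested. Scg2, encoding secretogranin II, fell by 2.1 on the log2 scale (SE 0.241, edgeR adjusted p = 4.47e-06), from 2360 ± 1180 CPM in males to 548 ± 425 CPM in females. Pcsk1, a proprotein convertase gene, fell by 1.32 (SE 0.189, edgeR adjusted p = 5.8e-05), from 213 ± 76.7 to 83.2 ± 31.5 CPM. Chgb and Scg3, of the granin family, fell by 1.02 and 0.68 (edgeR adjusted p = 8.38e-05 and 0.000186). In Cre carriers 4 of the 16 were higher, 0 lower and 12 did not pass the test, against 6.89% of all genes called. Pcsk2, the other main neuroendocrine convertase gene and also 1 of the 3 melanotrope markers, rose by 1.58 (SE 0.253, edgeR adjusted p = 0.000573), from 269 ± 138 to 841 ± 466 CPM. Chga rose by 0.77 (edgeR adjusted p = 0.000198), Vgf by 1.57 (0.00428) and Cpd by 0.37 (0.0254).

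Among 27 other neuropeptide genes that passed the filter, 2 were higher in females, 3 lower and 22 did not pass the test, a share close to the 21.7% of all genes called. Oxt and Avp, the oxytocin and vasopressin precursors carried into the posterior lobe by hypothalamic axons, rose by 1.45 and 1.3 (edgeR adjusted p = 2.5e-06 and 0.00296). Both are also among the posterior lobe markers given above, which moved with sex and with Cre. The part of that lobe in these differences was not tested. Agt, the angiotensinogen gene, fell by 1.91 (edgeR adjusted p = 0.00127), and Grp, the bombesin-like relative of Nmb, fell by 3.52 (0.00451), from 0.997 ± 0.627 CPM in males to 0.163 ± 0.218 CPM in females. In Cre carriers 2 were higher, 1 lower and 24 did not pass the test, against 6.89% of all genes. Oxt rose by 1.05 (edgeR adjusted p = 0.000235) and Avp by 1.25 (0.00816), while Trh fell by 2.93 (0.0157), from 0.636 ± 0.511 to 0.162 ± 0.223 CPM. Pnoc, the precursor gene of the opioid-related peptide nociceptin, differed by -2.45 (edgeR adjusted p = 0.0509).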

How the data were processed

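Pituitary polyA RNA was sequenced in 24 libraries. The authors deposited raw read counts per Ensembl gene, as whole numbers and not normalized. The submitters' processing notes name Trim Galore 3.8.2, FastQC, STAR 2.7.9 and the GRCm38 build. What counted the reads, and on which annotation, is not given in the sources used. Of 35191 identifiers, 35077 matched GENCODE M21, which gave names, positions and exon lengths.

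The analysis used edgeR 4.0.16 under R 4.3.3: filterByExpr, TMM scaling, 1 model with a mean for each of 8 groups (16 residual degrees of freedom), robust quasi-likelihood tests and Benjamini-Hochberg adjustment over 21927 genes at 0.05. Fold changes used a prior count of 0.125 and log levels, from which correlations were computed, a prior count of 2. Each of the 13 planned and 4 added comparisons was repeated under the alternatives of the closing section, including DESeq2 1.42.0. On simulated counts for Cre carriers against Cre-free libraries (21131 genes), 92% of 2-fold and 98% of 4-fold changes were recovered, with 17 false calls. The changed genes were drawn from those with a mean of at least 3 CPM. Vip and Tac1, with means of 2.32 and 0.478 CPM, lay below that floor. The shares cover genes of all spreads, and the median biological coefficient of variation of the genes tested was 0.337 as a fraction. It was 91.6% for Gal and 59.2% for Cck, so the shares do not hold for these 2 genes. Comparisons between single groups were not simulated, so these shares do not hold for them.

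All 6 genes were described in every comparison. From each gene list the 4 smallest p in the averaged sex and Cre comparisons were named, and for each of the 6 genes up to 3 with the highest r. Other receptor genes were named after their values were seen. The genes and lists were chosen with earlier results of these data known. Tacr2, Kiss1, Nms and Ucn were not analysed here. Reads carry no molecular identifiers. Separately, 3 libraries a group and counting error both limit precision.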

Additional observations from a re-analysis of the deposited data

How the results depend on the processing

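No called value changed sign under the alternatives run. With DESeq2 size factors, and with robust estimation off, all 17 counts of called genes among the 6 stayed the same. Without the filter on low counts (35191 genes tested), 14 of 17 counts moved. They became 3 for the averaged sex difference, for the averaged Cre difference and for Cre control against wild type over the sexes. They became 2 for the sexes in wild type, in Cre control, in Cre-free libraries and in Cre carriers, and for Cre control against wild type in males. They became 1 for the sexes in Egr1cKO, for Egr1cKO in males, in females and over the sexes, for the sex by Cre interaction and for Egr1cKO beyond Cre. The number of genes called in all moved with this setting too, for example from 62 to 370 for the sexes in wild type, and the cause was not tested.

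With each library's mitochondrial share as a covariate, the count became 0 for the averaged sex difference and for the sexes in Cre carriers, and 2 for the averaged Cre difference and for Cre control against wild type over the sexes. Over all genes this setting lowered the averaged sex calls from 4761 to 596 and raised the averaged Cre calls from 1510 to 4239. With DESeq2 the count became 1 for the sexes in Cre control, the averaged Cre difference and Cre control against wild type in males, and 2 for Cre control against wild type over the sexes. With only the compared groups in the model, it became 1 for the sexes in Cre control and 0 for Cre control against wild type in females.

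Leaving out each library in turn gave 0 to 1 called genes for the sexes in Cre control (1 without male Cre control replicate 1), the sexes in Egr1cKO (1 without male Egr1cKO replicate 3), the averaged Cre difference (Penk called in 5 of 24), Cre control against wild type in females, and the same over the sexes. No paired analysis was possible because the labels give the groups no shared replicate numbers. With 3 libraries a group, 1 library moved several values of Gal, Tac1 and Cck by over 1.5 times, as the report gives. The 4 comparisons averaged over the sexes or within Cre status were added after the data were seen.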
